A study of Mus musculus with 8 samples.

Results

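The mitochondrial beta-oxidation enzymes examined here are 10 genes taken in pathway order, from the very-long-chain acyl-CoA dehydrogenase *Acadvl* to the electron transfer dehydrogenase *Etfdh*, out of 32390 rows in the count table. They were chosen by name for their place in the pathway. This choice, and that of the gene lists set beside them, was made with earlier results of these data known. All 10 were found in the table and all 10 passed the filter on low counts that left 12725 rows for testing. The samples were gastrocnemius muscle, a mostly fast-twitch calf muscle, from male mice of 21 months on a C57BL/6 background. The 4 control samples came from mice with *Nox4* alleles flanked by loxP sites (*Nox4* fl/fl). The 4 samples labelled KO, called NOX4-deficient here, came from mice with the same alleles and the Cre transgene (*MckCre:Nox4* fl/fl). *MckCre* is driven by the muscle creatine kinase promoter, so that other cells of the muscle keep intact *Nox4*. The controls did not carry Cre, so the transgene and the loss of *Nox4* cannot be told apart. *Nox4* encodes an NADPH oxidase that makes hydrogen peroxide, and the study asked how its loss in muscle bears on adaptive responses in old age.

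Beta-oxidation shortens a fatty acyl-CoA inside the mitochondrion by repeated rounds of dehydrogenation, hydration, a second dehydrogenation and thiolytic cleavage, each round releasing acetyl-CoA. Some of the enzymes for long chains, such as that of *Acadvl*, sit at the inner membrane. Shortened chains pass to soluble enzymes for medium and short chains. Muscle relies on the pathway during fasting and sustained exercise, and peroxisome proliferator-activated receptors (PPARs) are well known regulators of its genes.

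The libraries held between 16350548 and 19804661 counts on genes in control and between 16628305 and 19216987 in NOX4-deficient samples, in 1 batch by the labels. Levels are CPM, counts relative to the library total after scaling by edgeR's TMM method, errors are SDs over 4 samples per genotype, and fold changes are NOX4-deficient over control. *Nox4* itself ranged from 1.87 to 5.09 CPM in control and from 1.74 to 2.21 CPM in NOX4-deficient libraries, so control replicate 3 lay inside the NOX4-deficient range. Its log2 fold change of -0.65 ± 0.29 (SE) did not pass edgeR's quasi-likelihood test (adjusted p = 0.207) or the exact two-sided permutation test (p = 0.2, where 0.0286 is the smallest p that 4 against 4 allow). The log2 fold change was -0.36 without control replicate 1, the library with the highest level. Counts over the whole gene do not separate the floxed exons from the rest, and the genotype names below are those of the labels. The 8 defining muscle markers, such as *Acta1* and *Ckm*, summed to between 121460 and 150732 CPM in the 8 libraries. Of the 8, 0 were called, beside 6.16% of all rows tested. The muscle was sequenced as a whole, so fewer cells of a type and less RNA per cell cannot be told apart.

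Across the pathway, 1 of the 10 enzymes fell and 0 rose at the study's thresholds, which were an adjusted p under 0.05 and a log2 fold change past 0.5 in either direction. The enzyme that fell was *Acadl*, which encodes long-chain acyl-CoA dehydrogenase. For comparison, 3.48% of all rows tested were called lower and 2.68% were called higher (6.16% in all) with edgeR's quasi-likelihood test and Benjamini-Hochberg adjustment. With no minimum fold, the adjusted p still picked *Acadl* alone, against 4.62% of all rows lower and 3.13% higher. At an unadjusted p under 0.05, 3 of the 10 enzymes were lower, *Acadl*, *Etfdh* and *Acadvl*, against 12.5% of all rows, and 0 were higher, against 10.7%. The median log2 fold change of the 10 was -0.10, with 6 negative and 4 positive, beside 0.01 over all rows. This median rested on single libraries: it was 0.01 without NOX4-deficient replicate 2, between -0.05 and -0.03 without NOX4-deficient replicate 3, control replicate 1 or control replicate 2, and -0.18 and -0.20 without NOX4-deficient replicate 4 and control replicate 4. The estimates ran from -0.64 for *Acadl* to 0.08 for *Hadh*.

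**Figure D1:**
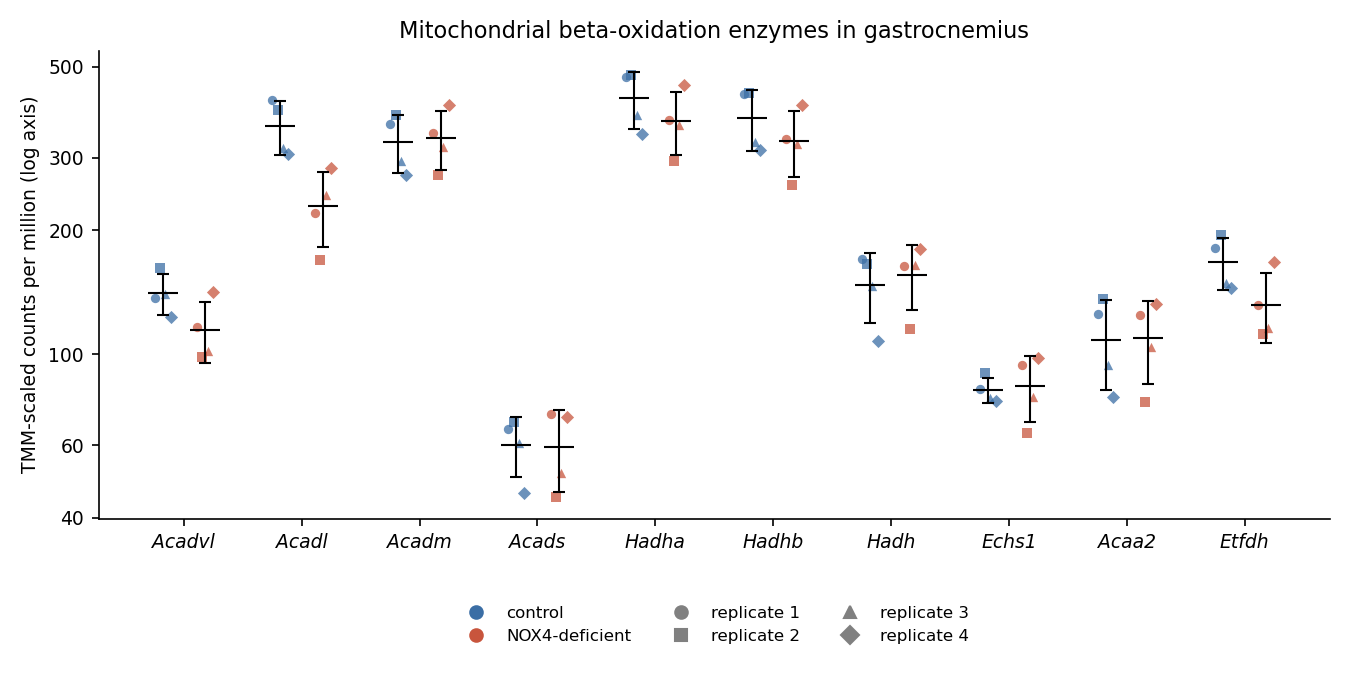
Levels of the 10 enzymes in pathway order, as TMM-scaled CPM on a log axis. Points are libraries, with a shape per replicate number, and black bars are the mean ± SD of 4 samples. The *Acadl* points of the 2 genotypes do not overlap (307 to 415 CPM against 169 to 283 CPM), and those of each other enzyme do.

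The first step of each round is run by acyl-CoA dehydrogenases that differ in the chain length they accept. *Acadl* had 415, 392, 318 and 307 CPM in control replicates 1 to 4 and 221, 169, 243 and 283 CPM in NOX4-deficient replicates 1 to 4. Every NOX4-deficient library lay below every control library, a separation seen on the lower side in 8.97% of all rows tested and on the higher side in 7.2%. None of the other 9 enzymes separated in either direction. The mean fell from 358 ± 53.7 to 229 ± 47.4 CPM, by 36.0%. The log2 fold change was -0.64 ± 0.16 (SE), with a 95% interval from -0.98 to -0.31 and an adjusted p of 0.0264 by edgeR's quasi-likelihood test. This call did not hold in every subset of the libraries. By the same edgeR test the adjusted p was 0.0693 without control replicate 1, 0.0725 without control replicate 2, 0.0661 without NOX4-deficient replicate 1 and 0.0554 without NOX4-deficient replicate 3. The log2 fold change stayed between -0.75 and -0.52 whichever library was left out.

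*Acadvl* encodes the membrane-bound dehydrogenase for the longest chains. It had 137, 162, 140 and 123 CPM in control and 116, 98.4, 102 and 141 CPM in NOX4-deficient replicates 1 to 4. The groups overlapped because NOX4-deficient replicate 4 was above 3 of the 4 control libraries. The means were 141 ± 16.2 and 115 ± 19.6 CPM, and the log2 fold change of -0.30 had a 95% interval from -0.58 to -0.01, but the adjusted p was 0.197 with edgeR's quasi-likelihood test. In the GENCODE M21 annotation, 45.02% of the bases of the principal *Acadvl* transcript also lie in exons of *Dvl2*, a Wnt signalling gene with at most 6.12 CPM in any library. The libraries were unstranded, so reads from the shared bases cannot be assigned by strand and the level of *Acadvl* is uncertain.

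*Acadm*, for medium chains, had 362, 382, 294 and 273 CPM in control and 345, 272, 319 and 403 CPM in NOX4-deficient replicates 1 to 4. The ranges nearly coincided, at 328 ± 52.7 and 335 ± 54.8 CPM. The log2 fold change was 0.03 with a 95% interval from -0.28 to 0.34. *Acads*, for short chains, was the least abundant enzyme, ranging from 45.9 to 68.4 CPM in control and from 44.9 to 71.3 CPM in NOX4-deficient libraries. Its log2 fold change of -0.02 had a 95% interval from -0.38 to 0.35. The 4 dehydrogenases thus did not shift alike in their estimates, and the intervals of the medium-chain and short-chain enzymes did not reach the estimate of *Acadl*.

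The promoter windows of *Acadl*, which fell, and *Acadm*, which did not pass the test, are shown because they are the extremes of this step. The windows run from 250 bases before to 50 bases after the start in RefSeq on GRCm38.p6, for which 9 of the 10 enzymes matched an entry. Capitals mark AGGTCA, the core motif bound by many nuclear receptors, searched on both strands.
Acadl, chr1:66863260-66863559, minus strand: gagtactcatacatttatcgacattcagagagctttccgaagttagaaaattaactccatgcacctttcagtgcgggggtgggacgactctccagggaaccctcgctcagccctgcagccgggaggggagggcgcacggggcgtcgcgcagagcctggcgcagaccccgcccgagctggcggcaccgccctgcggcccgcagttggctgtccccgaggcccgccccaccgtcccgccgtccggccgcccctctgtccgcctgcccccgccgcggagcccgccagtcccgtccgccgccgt
Acadm, chr3:153944594-153944893, minus strand: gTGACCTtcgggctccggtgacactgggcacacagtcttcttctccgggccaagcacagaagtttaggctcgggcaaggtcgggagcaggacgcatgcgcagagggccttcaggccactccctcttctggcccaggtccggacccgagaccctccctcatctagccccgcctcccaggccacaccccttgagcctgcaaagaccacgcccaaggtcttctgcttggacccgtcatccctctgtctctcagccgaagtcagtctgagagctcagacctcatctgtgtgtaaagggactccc
The *Acadm* window held 1 such motif, read on the opposite strand as TGACCT from base 2, and the *Acadl* window held 0. Over the enzymes, 3 of 9 windows held one (*Acadm*, *Echs1* and *Acadvl*), beside 16.3% of all 32851 windows. The estrogen-related receptor element TCAAGGTCA was in 0 of 9 windows and 0.423% of all, and AGGTCANAGGTCA, the same core repeated 1 base apart, in 0 of 9 and 0.0396% of all. Each longer motif contains the core, and a window without these letters says nothing of sites elsewhere.

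The mitochondrial trifunctional protein carries out the later steps for long chains at the inner membrane. *Hadha* encodes its alpha subunit, with hydratase and 3-hydroxyacyl-CoA dehydrogenase activity, and *Hadhb* its beta subunit, the thiolase. *Hadha* had 473, 476, 381 and 343 CPM in control and 370, 295, 361 and 452 CPM in NOX4-deficient replicates 1 to 4. *Hadhb* had 430, 432, 328 and 313 CPM in control and 333, 257, 324 and 404 CPM in NOX4-deficient replicates 1 to 4. Both were high in control replicates 1 and 2 and in NOX4-deficient replicate 4, lowest in NOX4-deficient replicate 2, and overlapped between genotypes. The log2 fold changes were -0.18 for *Hadha* (95% interval from -0.50 to 0.14) and -0.19 for *Hadhb* (95% interval from -0.52 to 0.14). Neither passed edgeR's quasi-likelihood test, with adjusted p-values of 0.508 and 0.499. Single libraries moved these values, to -0.085 and -0.087 without NOX4-deficient replicate 2, to -0.12 for both without control replicate 1, to -0.11 and -0.12 without control replicate 2, and to -0.28 and -0.29 without NOX4-deficient replicate 4.

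The 2 subunits kept nearly the same proportion in every library. The ratio of *Hadha* to *Hadhb* counts was 1.11 ± 0.0300 in control and 1.12 ± 0.0169 in NOX4-deficient libraries, a log2 difference of 0.01, with overlapping values. The genes lie head to head, which is why the *Hadha* window is shown here. Their starts are 272 bases apart in RefSeq on GRCm38.p6, and the capitals mark the 228 bases, chr5:30155003-30155230, that also belong to the *Hadhb* window on the plus strand.
Hadha, chr5:30154931-30155230, minus strand: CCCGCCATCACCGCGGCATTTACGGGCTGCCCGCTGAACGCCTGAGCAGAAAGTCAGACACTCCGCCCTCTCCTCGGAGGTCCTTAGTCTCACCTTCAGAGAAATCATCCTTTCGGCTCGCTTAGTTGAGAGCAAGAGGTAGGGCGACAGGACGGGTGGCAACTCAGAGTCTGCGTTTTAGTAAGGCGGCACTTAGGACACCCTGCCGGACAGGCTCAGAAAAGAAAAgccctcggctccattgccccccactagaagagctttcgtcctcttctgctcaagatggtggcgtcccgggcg
Neither the *Hadha* nor the *Hadhb* window held AGGTCA.

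The soluble enzymes for shorter chains had estimates near 0. *Echs1*, the short-chain enoyl-CoA hydratase, ranged from 77.2 to 89.8 CPM in control and from 64.4 to 97.7 CPM in NOX4-deficient libraries. *Hadh*, the 3-hydroxyacyl-CoA dehydrogenase for medium and short chains, ranged from 108 to 171 CPM and from 115 to 180 CPM. *Acaa2*, the thiolase of the matrix, ranged from 78.7 to 136 CPM and from 76.7 to 133 CPM. In all 3 the genotypes overlapped, and for *Echs1* the control range lay inside the wider NOX4-deficient range. The log2 fold changes were 0.03 for *Echs1*, 0.08 for *Hadh* and 0.01 for *Acaa2*. Their 95% intervals ran from -0.25 to 0.31, from -0.27 to 0.43 and from -0.42 to 0.44, so a change of the size seen in *Acadl* lay outside each of them.

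*Etfdh* encodes the flavoprotein that hands electrons from the acyl-CoA dehydrogenases to ubiquinone. It had 181, 194, 149 and 145 CPM in control and 131, 112, 116 and 168 CPM in NOX4-deficient replicates 1 to 4. Of the NOX4-deficient libraries, 3 lay below every control and replicate 4 lay among the controls. The means were 167 ± 24.1 and 132 ± 25.3 CPM. The log2 fold change of -0.34 had a 95% interval from -0.66 to -0.03 and an adjusted p of 0.173 by edgeR's quasi-likelihood test. Its electron donor is built from *Etfa* and *Etfb*. *Etfa* was at 166 ± 17.2 and 148 ± 29.4 CPM (log2 fold change -0.16), and *Etfb* at 12.2 ± 1.63 and 14.5 ± 4.17 CPM (log2 fold change 0.25). By edgeR's quasi-likelihood test their adjusted p-values were 0.539 and 0.49. For *Etfb*, 69.1% of the transcript's bases lie in exons of another annotated gene, and its level is uncertain.

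To compare levels between enzymes, CPM was divided by the length of each gene's principal protein-coding transcript in GENCODE M21. On this scale of CPM per kilobase, *Acadl* was at 187 ± 28.0, *Hadhb* at 183 ± 31.2 and *Acadm* at 160 ± 25.8 in control muscle. These 3 led the control order and did not differ beyond the larger SD of neighbours. *Hadha* followed at 104 ± 16.6, then *Hadh* at 82.5 ± 15.9, *Acaa2* at 71.6 ± 17.7, *Etfdh* at 70.4 ± 10.1 and *Acadvl* at 64.8 ± 7.49. Between *Hadh* and *Acadvl* no neighbours differed beyond that spread, whereas *Echs1* at 52.6 ± 3.70 and *Acads* at 32.2 ± 5.39 each stood below the gene before them. In NOX4-deficient muscle *Acadm* led at 164 ± 26.8 CPM per kilobase, with *Hadhb* at 161 ± 29.3, and *Acadl* was in the third place at 120 ± 24.8, below *Hadhb* by more than the spread. Below *Hadha* only *Echs1* and *Acadvl* exchanged places. Their means there were 53.8 and 52.8, just under *Etfdh* at 55.5, and neighbours among these did not differ beyond the spread.

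The enzymes were closely tied from library to library. Control replicate 4 was the lowest control in 10 of 10 enzymes, and NOX4-deficient replicate 2 the lowest of its group in 10 of 10. NOX4-deficient replicate 4 was the highest of its group in 9 of 10, with *Acads* highest in replicate 1. Control replicate 2 was the highest control in 8 of 10, and *Acadl* and *Hadh* were highest in control replicate 1. The summed CPM of the 10 enzymes was 2442, 2499, 1990 and 1814 in control and 1971, 1506, 1865 and 2332 in NOX4-deficient replicates 1 to 4, with overlap. Deviations of log2 CPM from the genotype means correlated between enzymes with a median Pearson's r of 0.87 (0.71 to 0.99 over 45 pairs and 8 libraries, all scaled by the same library factors). The same r between the mean profile of the enzymes and genes of the tricarboxylic acid cycle, which burns the acetyl-CoA produced, had a median of 0.78 over 16 genes. Outside the enzymes the 5 most alike were *Acat1* and *Ca2*, each with r = 0.99, *Cpt2* with r = 0.99, and *Ech1* and *Ephx2*, each with r = 0.98.

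**Figure D2:**
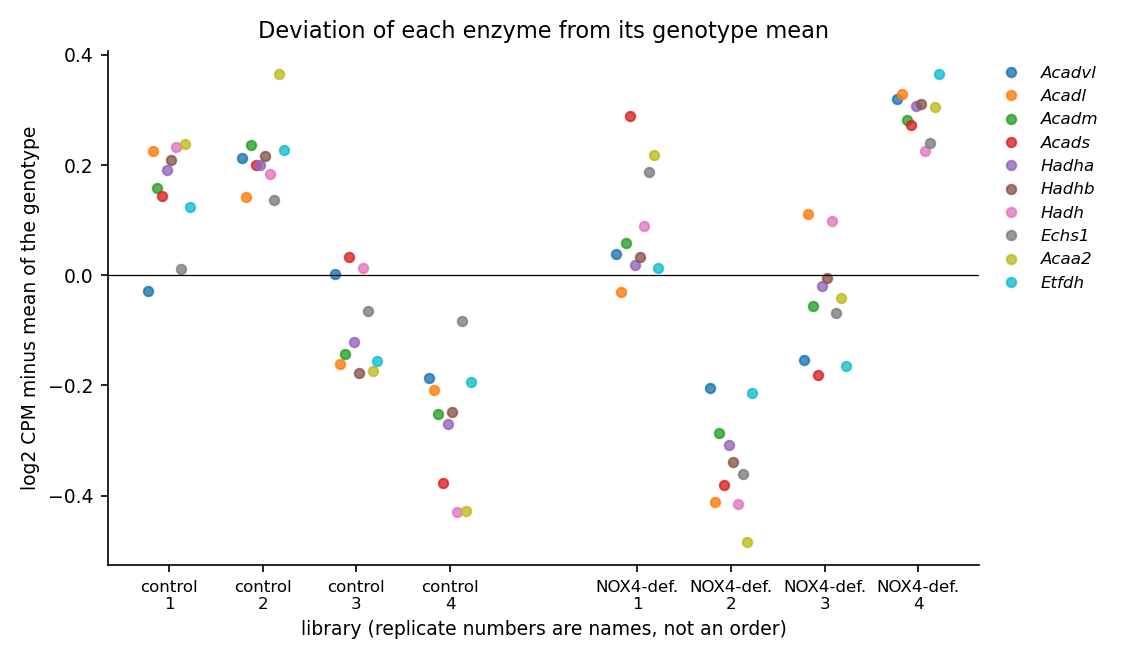
Log2 CPM of each enzyme minus the mean of its genotype (vertical axis), by library (horizontal axis), 1 color per enzyme. All 10 enzymes lie lowest among the controls in replicate 4 and lowest among the NOX4-deficient libraries in replicate 2.

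Other markers varied between the same libraries. Slow-fiber markers summed to 461, 738, 400.5 and 353 CPM in control and 463, 551, 636 and 1261 CPM in NOX4-deficient replicates 1 to 4, so the library with the highest sum in each genotype was control replicate 2 and NOX4-deficient replicate 4. Of these 8 markers 0 were called and 0 were at 0 in all libraries, with a median log2 fold change of 0.64. Red blood cell markers were higher in NOX4-deficient muscle, with 2 of the 3 tested called (*Hba-a1* and *Hbb-bs*), beside 2.68% of all rows called higher. Their sum was 72.3 to 159 CPM against 47.6 to 52.7 CPM. Adipocyte markers summed to 164 to 304 CPM and 161 to 212 CPM, immune cell markers to 11.3 to 32.5 CPM and 11.6 to 21.1 CPM, endothelial markers to 250 to 319 CPM and 267 to 304 CPM, fibroblast and tendon markers to 394 to 657 CPM and 384 to 580 CPM, and nerve markers to 78.3 to 108 CPM and 79.9 to 198 CPM, and 0 of each list were called. With 6.16% of all rows called in either direction, 0 called in lists this short is near that share and does not show that cell composition was the same. The part of these markers in the values of the enzymes was not tested.

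Because the enzymes rose and fell together between libraries, their proportions within a library were also described. These ratios do not depend on how libraries are scaled. They were chosen after the levels had been seen and carry no test. Relative to *Acadm*, 5 of the 9 other enzymes were lower in every NOX4-deficient library than in every control library, and 0 were higher, beside 3.12% of all rows lower and 2.78% higher. The ratio of *Acadl* to *Acadm* counts was 1.15, 1.03, 1.08 and 1.13 in control and 0.639, 0.623, 0.763 and 0.702 in NOX4-deficient replicates 1 to 4. Its mean fell by 37.7%, and the gap between the groups was wider than the range within either. *Acadl* counts thus exceeded those of *Acadm* in every control library and fell short of them in every NOX4-deficient library.

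The other 4 ratios to *Acadm* that separated the genotypes were smaller shifts. *Etfdh* over *Acadm* was 0.512 ± 0.0142 in control and 0.393 ± 0.0253 in NOX4-deficient libraries. *Acadvl* over *Acadm* was 0.432 ± 0.0418 and 0.342 ± 0.0184. *Hadha* over *Acadm* was 1.28 ± 0.0283 and 1.10 ± 0.0276, and *Hadhb* over *Acadm* 1.15 ± 0.0302 and 0.982 ± 0.0324. These 5 are the 4 genes for long chains and *Etfdh*. The ratios of *Acads*, *Hadh*, *Echs1* and *Acaa2* to *Acadm* overlapped. Taken directly against *Acads*, *Hadh*, *Echs1* and *Acaa2*, *Acadl* was lower without overlap each time. For *Acadvl*, *Hadha* and *Hadhb*, only *Acadvl* over *Echs1* and *Hadha* over *Hadh* did not overlap, and the other such ratios did.

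The choice of denominator decided how many separated. The RNA of *Cs*, which encodes citrate synthase, served as another denominator and was not taken as a measure of mitochondrial content. With *Cs*, only *Acadl* of the 10 enzymes was lower without overlap, and 0 were higher, beside 5.33% and 5.49% of all rows, with a ratio of 0.485 ± 0.0524 in control and 0.305 ± 0.0427 in NOX4-deficient libraries. Without NOX4-deficient replicate 4 that count was 4 of 10, beside 5.93% of all rows in the same 7 libraries. It was 2 of 10 without control replicate 1 or control replicate 3, beside 6.57% and 6.63%, and groups of fewer libraries overlap less often in any gene. Over all pairs of enzymes, 16 of 45 ratios (35.6%) did not overlap, beside 15.4% of all pairs of rows. Of these 16, 11 involved *Acadl*, the gene called, or *Acadm*, the denominator chosen above. Among the other 8 enzymes 5 of 28 pairs did not overlap (17.9%), close to the share over all pairs of rows.

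**Figure D3:**
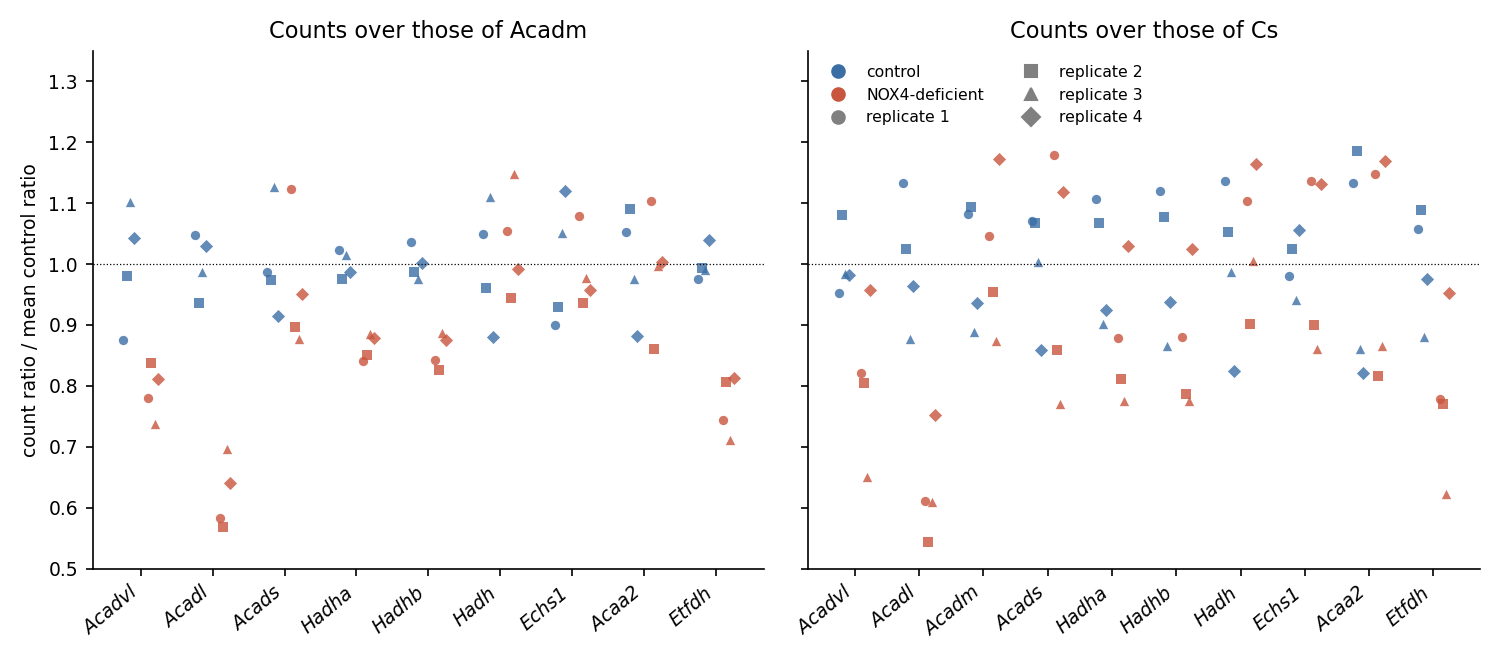
Counts of each enzyme divided by those of *Acadm* (left) or *Cs* (right) in the same library, relative to the mean control ratio (vertical axis). Points are libraries, with a shape per replicate number. On the left, 5 enzymes separate the genotypes (*Acadvl*, *Acadl*, *Hadha*, *Hadhb* and *Etfdh*), and on the right *Acadl* alone.

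Genes that work beside these enzymes gave a further comparison. Of 12 electron transfer and auxiliary enzymes 0 were called in either direction, beside 6.16% of all rows, with a median log2 fold change of -0.08. A list of 12 genes with 0 called is near that share. Among them *Eci2*, an enoyl-CoA isomerase for unsaturated chains, did not overlap (54.5 to 57.1 CPM in control, 35.9 to 48.5 CPM in NOX4-deficient libraries), a separation seen on the lower side in 8.97% of all rows. *Eci2* had a log2 fold change of -0.37 and an adjusted p of 0.0536 by edgeR's quasi-likelihood test. Its partner isomerase *Eci1* had a log2 fold change of -0.29, and the dienoyl-CoA reductase *Decr1* 0.10. *Acat1*, a thiolase of ketone body and isoleucine metabolism, had -0.11, *Hsd17b10* 0.08 and the branched-chain dehydrogenase *Acadsb* -0.04. The less studied dehydrogenases *Acad9*, *Acad10*, *Acad11* and *Acad12* had 0.07, -0.32, -0.17 and -0.06.

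Upstream of the spiral, 2 of 9 genes of the carnitine shuttle and its control by malonyl-CoA were called lower, and 0 higher, beside the 3.48% lower and 2.68% higher over all rows. *Mlycd*, which degrades malonyl-CoA, went from 123 ± 9.90 to 68.9 ± 13.5 CPM (log2 fold change -0.83, adjusted p = 0.00476 by edgeR), and *Acacb*, which makes it, from 399 ± 35.5 to 270 ± 44.6 CPM (log2 fold change -0.56, adjusted p = 0.0194 by edgeR). The carnitine-acylcarnitine carrier *Slc25a20* had 94.6 ± 10.8 and 70.5 ± 12.96 CPM without overlap, at an adjusted p of 0.0882 by edgeR's quasi-likelihood test. *Cpt2*, which reforms acyl-CoA in the matrix, had a log2 fold change of -0.16. *Cpt1b*, the muscle carnitine palmitoyltransferase, was at no more than 1.23 CPM in any library, and 94.8% of its transcript lies in exons of another annotated gene, so its level is uncertain. Of 10 genes for fatty acid uptake and activation 3 were called lower and 0 higher, beside the same shares. They were the fatty acid transporter *Cd36* (log2 fold change -0.72), the acyl-CoA synthetase *Acsl1* (-0.65) and the transport protein *Slc27a1* (-0.61), with adjusted p-values of 0.0189, 0.0195 and 0.0243 by edgeR's quasi-likelihood test. Of the 10 enzymes of the spiral 7 had intervals that included 0, as had most of the uncalled genes of both upstream lists. *Acadl* fell by a log2 value close to those of the 3 called genes of uptake and activation. The differences between *Acadl* and these genes were not tested.

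**Figure D4:**
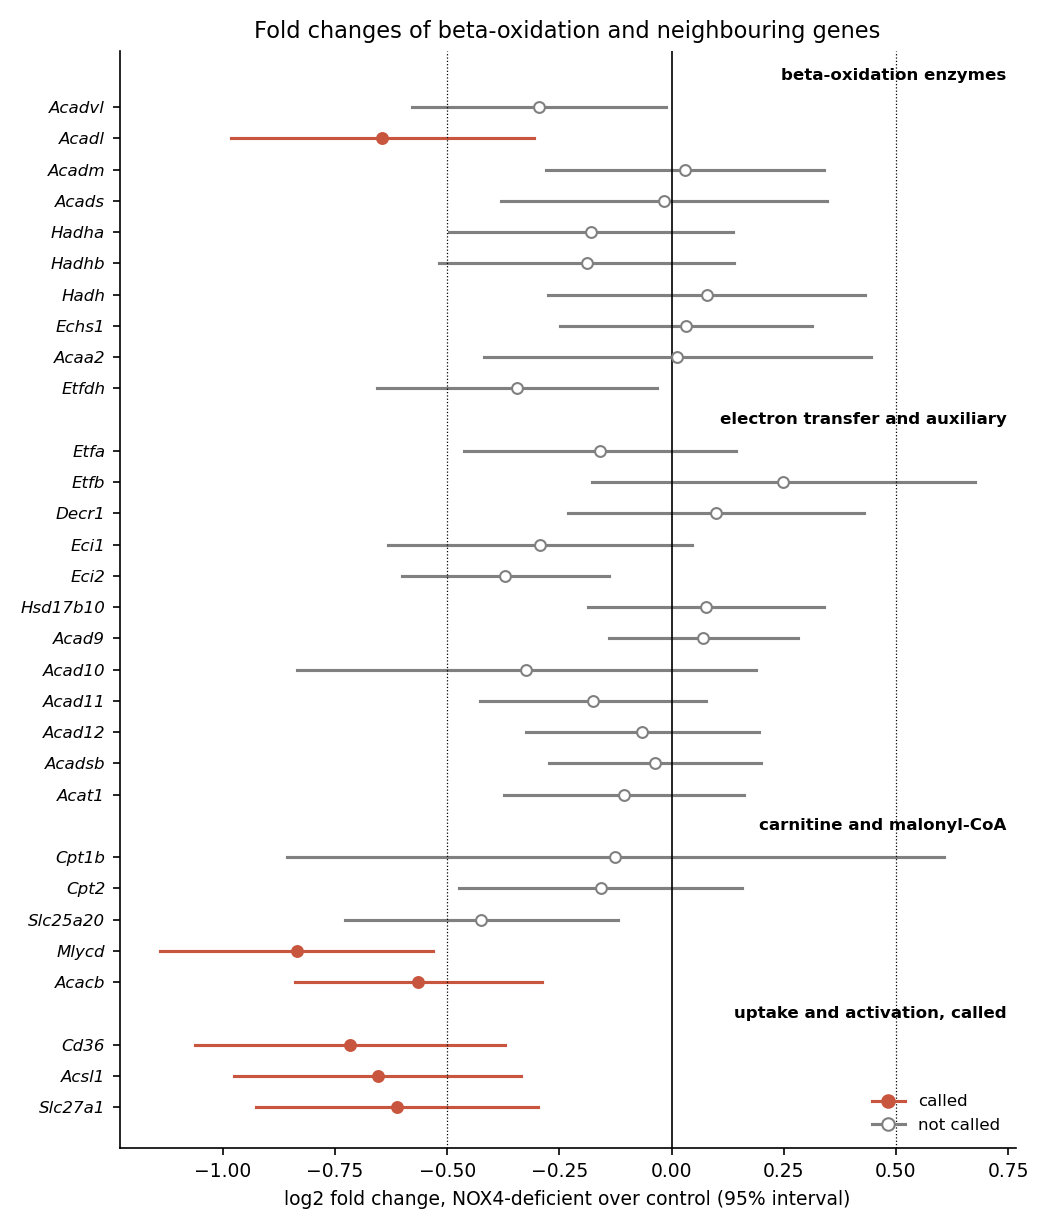
Log2 fold changes (horizontal axis, NOX4-deficient over control, with 95% intervals) of the 10 enzymes, the 12 electron transfer and auxiliary enzymes, 5 genes of the carnitine shuttle and malonyl-CoA control, and the 3 called genes of uptake and activation. Filled points were called and dotted lines mark log2 fold changes of -0.5 and 0.5. Among the 10 enzymes *Acadl* alone is filled, at -0.64.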

How the data were processed

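RNA from gastrocnemius muscle of 8 mice was sequenced as poly(A)-selected, unstranded, paired-end libraries. The authors processed the reads with the nf-core RNA-seq pipeline, and their processing notes name STAR and GRCm39. Neither the annotation nor the settings of the read counter is given in the sources used here. The authors deposited raw counts per gene, without normalization, in 32390 rows. All value columns matched a sample (0 unmatched).

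The test was edgeR 4.0.16 under R 4.3.3 (TMM, filterByExpr, robust glmQLFit, quasi-likelihood F test), fitted to the 8 samples by genotype alone, with Benjamini-Hochberg adjustment over 12725 rows. Where a name occurred in several rows, the row with most counts was used. Called means an adjusted p under 0.05 with a log2 fold change past 0.5 in either direction. All 12 pairs of replicates differed by more than sampling noise, with 13.5 to 56.4 of chi-square per degree of freedom.

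Alternatives were other scaling, filters and thresholds, limma voom 3.58.1, DESeq2 1.42.0, pydeseq2 0.5.4, the replicate number as a block and each library left out. Count ratios were added later, with the data known. The enzymes, gene lists and tests were chosen with earlier results of these data known. Named genes are the 10 enzymes, *Nox4*, all electron transfer and auxiliary enzymes, *Cpt1b*, *Cpt2*, *Slc25a20*, the called genes of the other lists (at most the 3 with the smallest p-values), muscle markers and the 5 genes most alike the enzymes. *Dvl2*, *Cs*, *Rxrg*, *Ppargc1a* and *Ppargc1b* are named outside this rule. Transcript lengths and overlaps come from GENCODE M21 on an older build than that of the files, and are used with no gene coordinates.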

Additional observations from a re-analysis of the deposited data

Results flagged for a closer look

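Of 44 groups of 4 libraries examined for a library standing apart (by Dixon's 95% critical value), 2 were past it, where chance gives about 2.2. The *Nox4* level of NOX4-deficient replicate 1 was the lowest of its group, with a gap to the nearest library of 0.918 of the group's range, a range of 1.74 to 2.21 CPM. The ratio of *Hadha* to *Hadhb* counts was highest in control replicate 3, with a gap of 0.912 of the range. That ratio was 1.16 there and 1.10 in each of the other controls, and the means of the genotypes differed by a log2 value of 0.01.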

How the results depend on the processing

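*Acadl* was lower under each of 18 alternatives, with log2 fold changes from -0.75 to -0.52 and adjusted p-values from 0.00273 to 0.0725. The number of enzymes called lower ranged from 0 to 1 when 1 library was left out, as did the number lower at the adjusted p alone, and it was 0 without control replicate 1 or 2 or NOX4-deficient replicate 1 or 3. It was also 0 at an adjusted p under 0.01, where 252 genes were called in all. With 1 library left out, 499 to 712 genes were called, the lowest without control replicate 4, beside 784 with all 8. DESeq2 called 1018 and pydeseq2 1009, each with *Acadl* as the enzyme called. The adjusted p of *Etfdh* ranged from 0.058 to 0.366 and that of *Acadvl* from 0.0843 to 0.409, so neither was called under any alternative. With 1 library left out, the sign of 5 enzymes near 0 changed. The log2 fold changes then ranged from -0.13 to 0.10 for *Acads*, -0.056 to 0.12 for *Acadm*, -0.034 to 0.14 for *Echs1*, -0.11 to 0.15 for *Acaa2* and -0.046 to 0.20 for *Hadh*, and *Acads* was 0.0029 with at least 10 counts in every sample. The median over the enzymes ranged from -0.20 to 0.01. The cause of these shifts was not tested. Same-numbered samples of the 2 genotypes correlated with r of 0.22, 0.15, 0.04 and 0.04 in their deviations, so the numbers were not taken to pair them. With the replicate number as a block, 933 genes and 1 enzyme, *Acadl* (adjusted p = 0.038 by edgeR), were called, and the median log2 fold change of the enzymes was -0.11. Only replicate 1 correlated best with its own number. The intervals given with the fold changes set the size of change that 4 samples per genotype could show.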

Other observations

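Genes outside the spiral that act on the same fatty acids gave the following counts, read beside the 3.48% of all rows called lower and 2.68% called higher with edgeR's quasi-likelihood test. Of 8 acyl-CoA thioesterases, which release free fatty acids from acyl-CoA, 2 were called lower. *Acot2*, the mitochondrial form, had 77.0, 75.2, 58.6 and 88.8 CPM in control and 13.7, 12.04, 16.5 and 18.4 CPM in NOX4-deficient replicates 1 to 4, a log2 fold change of -2.31 ± 0.16 (SE). Its cytosolic neighbour *Acot1*, a near-identical copy, so that reads of the pair are not surely separated, had 5.19 to 9.71 CPM and 0.528 to 0.999 CPM. The log2 fold changes of both were further from 0 than that of *Acadl*, and these differences were not tested.

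Of 8 other PPAR target genes 3 were called lower. They were the lipid droplet protein *Plin5* (29.4 ± 6.26 to 8.84 ± 2.53 CPM), the triglyceride lipase *Pnpla2* (356 ± 60.6 to 157 ± 28.3 CPM) and the pyruvate dehydrogenase kinase *Pdk4*. Of 11 PPAR and PGC1 regulators 1 was called lower, *Ppard*, the receptor most abundant in muscle, from 32.8 ± 3.14 to 21.9 ± 2.95 CPM, and 0 were called higher. This list went both ways, since without overlap 2 were lower and 3 higher, beside 8.97% and 7.2% of all rows tested. *Rxrg*, named after its values were seen, was higher at an adjusted p of 0.0366 by edgeR but a log2 fold change of 0.41, under the minimum. Named likewise, *Ppargc1a* had the lowest estimate of the list (-1.39) and *Ppargc1b* the highest (0.70). Neither was called, with adjusted p-values of 0.0855 and 0.117 by edgeR. Of 13 tested genes of peroxisomal beta-oxidation, 16 of the tricarboxylic acid cycle and 2 of ketone body use, 0 were called, where 6.16% of all rows were called in either direction, with median log2 fold changes of -0.04, 0.01 and -0.27.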
